A study of Drosophila melanogaster with 6 samples.

Results

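The transcripts described here are 100 array probes whose level in fly heads differed most between a pair of preparations of the same mutant, being highest on the second Top3b26 array relative to the third. They were chosen from 17059 probes that carry a FlyBase transcript identifier, were well above background on Top3b26 2 and had a usable spot on Top3b26 3, out of 21729 FlyBase transcript probes and 32162 non-control probes in all. A level is the log2 processed signal of a probe, averaged over its spots, minus the median of its array, so a level of 0 is the middle of that array. The 100 probes with the largest Top3b26 2 minus Top3b26 3 were taken and ranked by it. They stand for 97 transcripts, since 3 transcripts had 2 probes each among them. The other 4 arrays, WT 1 to 3 and Top3b26 1, played no part in the choice.

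Total RNA came from heads of adult flies collected by freezing and sieving. The WT group was the stock w1118. The Top3b26 group carried a mutant allele of Top3β that arose when a P-element was mobilized again, on the w1118 background, so both groups share that white-eyed background. Each group held 3 separately prepared RNA samples on 1 one-colour Agilent array each, and the labels give neither the sex nor the number of the flies. The first 2 WT arrays shared slide 1 with Top3b26 1, while WT 3 was on slide 2 with the other mutant arrays.

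Topoisomerase 3β is an enzyme that passes strands of DNA and RNA through each other, and in flies it has been tied to the silencing of heterochromatin. A fly head holds photoreceptors, neurons, glia, fat body and muscle, but no testis, and transcripts of the male germ line are normally low there. The probes were proposed as the counterpart of transcripts that behave like those of the testis, which were low on Top3b26 2 and high on Top3b26 3. In bulk RNA of this kind, fewer cells of a type and less RNA per cell cannot be told apart. The files do not pair FlyBase transcript identifiers with gene names, 0 of the 100 members matched a gene symbol in the reference table, and roles of the members are therefore not given. Of 244 marker genes in 15 lists for head, germ line and other cell types, 2 had a named probe (roX1 and roX2), so the tissue labels were not checked against markers.

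Over non-control spots the median signal ran from 279 on Top3b26 2 to 1604 on Top3b26 3, and between 71.1% and 81.2% of them were well above background. On the level scale, 89.3% of the eligible probes were higher on Top3b26 2 than on Top3b26 3, with a median difference of 1.28, after a scaling by array medians that adds 2.50 to every probe. Before scaling only 5.32% of the eligible probes were brighter on Top3b26 2. All 100 members were brighter there without any scaling, by at least 1.26 and by a median of 1.85 (log2). After scaling the members differed by between 3.76 and 9.71, with a median of 4.35. These values chose the members and are given as a description. With normexp correction of the spot medians and an offset of 50, in place of the scanner's processed signal, 14 of the 100 were chosen again. The last 2 members inside the threshold lay at 3.76 and the first 2 probes outside it at 3.74 and 3.73.

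The members fell into 2 kinds that differ in where their spots lie. Of the 100 members, 18, with 5 of the first 6 ranks among them, had a spot in a small area at the edge of Top3b26 3, which covers the last 6 of 532 rows and 19 of 85 columns. The area was delimited after the spots had been examined. It holds 114 of the non-control spots, or 0.261% of them. Spots well above background on the other 5 arrays were compared with the median of those arrays, less the median of this difference over all such spots. Of 71 such spots in the area, 33 (46.5%) lay more than 3 (log2) below on Top3b26 3, against 0.153% of such spots elsewhere on that array. Counted in the same way, the area held 0 such spots of 45 on each WT array and on Top3b26 1, and 5 of 48 on Top3b26 2.

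**Figure D1:**
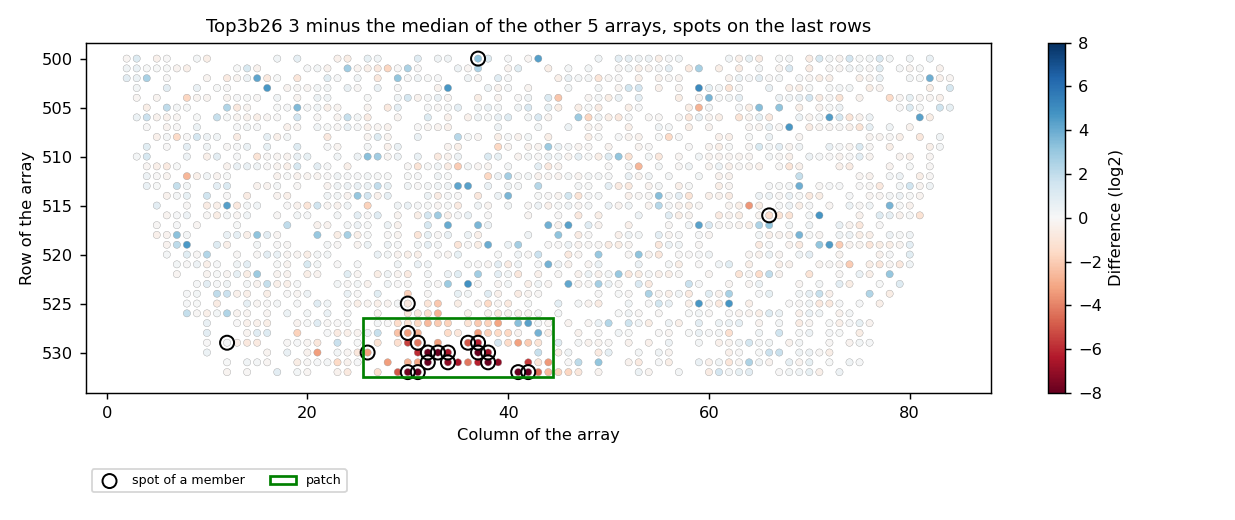
Each point is a spot on the last rows of the array that was well above background on the other 5 arrays, placed by its row and column. Its colour is the level on Top3b26 3 minus the median level of the other 5 arrays (log2). The median of this difference over all such spots of the array was subtracted. Spots of members are circled, the green box is the area of 6 rows and 19 columns, and the strongly lowered spots (red) gather in it.

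Of the 18 members, 12 had a second spot of the same probe elsewhere on the array, which allows the area to be compared with the rest of Top3b26 3. For these probes the spot inside gave a Top3b26 2 minus Top3b26 3 of between 5.96 and 12.6, with a median of 9.22. The spot outside gave between -0.22 and 1.97, with a median of 1.09, and 0 of the 12 outside spots reached the value of the 100th member. On the other 5 arrays the paired spots differed by at most 0.30 (log2) in level, whereas on Top3b26 3 the level inside minus outside had a median of -8.27. The member ranked 4 had levels of 4.99 inside and 5.01 outside on WT 1. All 12 outside spots were well above background on Top3b26 3, against 3 of the 12 inside. With the spots of the area left out, 82 of the 100 members were chosen again and 0 of those 18 were among them.

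**Figure D2:**
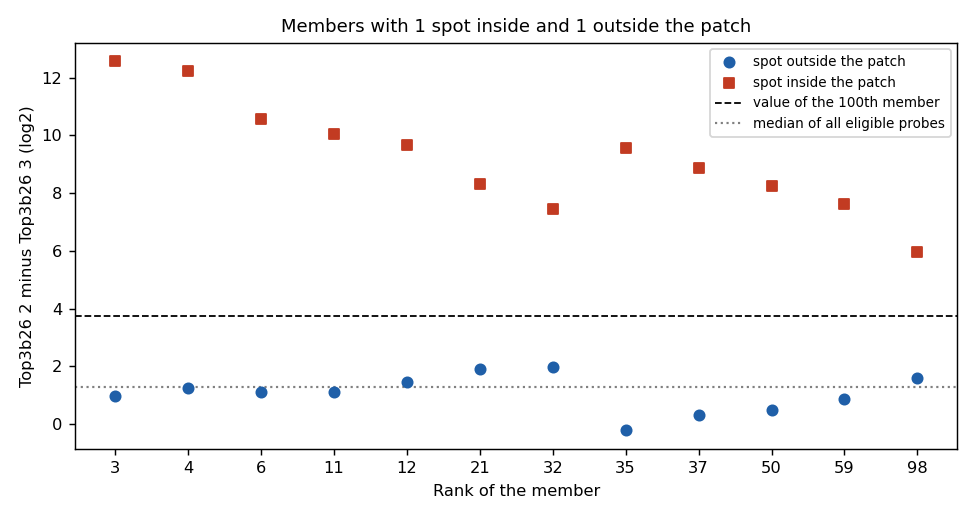
Top3b26 2 minus Top3b26 3 (log2) of the spot inside (red squares) and the spot outside (blue circles) the area, for the 12 members with both, ordered by rank. The dashed line is the value of the 100th member and the dotted line the median of all eligible probes, 1.28. All inside spots lie above the dashed line and all outside spots below it.

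On the arrays that the rule did not use, the 18 members were ordinary, well measured transcripts. Their median level was 2.47 on WT 1, 3.05 on WT 2, 2.94 on WT 3 and 2.45 on Top3b26 1, and 17 of the 18 were well above background on each of these. The eligible probes as a whole had medians of 2.24, 2.75, 2.63 and 2.06 on the same arrays. Top3b26 1 minus the WT mean had a median of -0.51 over the 18 members and ran from -0.97 to -0.20, beside a median of -0.49 over all eligible probes. The top-ranked member of all had levels of 1.81, 2.49 and 2.48 in WT and of 2.06, 2.86 and -6.85 in Top3b26, with Top3b26 3 alone standing apart. Its 1 spot lies in the area.

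The other 82 members, with no spot in the area, were dim in most preparations. Their median level was -4.36 on WT 1, -2.94 on WT 2, -3.79 on WT 3, -4.78 on Top3b26 1, -1.31 on Top3b26 2 and -5.94 on Top3b26 3. Their median processed signals were 17.1, 41.0 and 53.6 for WT 1 to 3 and 20.03, 81.2 and 18.5 for Top3b26 1 to 3, while the eligible probes had medians between 1339.7 and 4566. Only 29, 43 and 39 of the 82 were well above background on WT 1 to 3, 29 on Top3b26 1 and 18 on Top3b26 3. Among all eligible probes, that share was between 97.4% and 98.8% on each of these 5 arrays. The dimness is that of the member probes, since other probes of some of the same transcripts were far brighter. For rank 22 the WT mean was -3.47 for the member and 3.76 for another probe, well above background on all 6 arrays. Other probes were dim too, as for rank 34, with -5.07 for the member and -5.87 for the other probe. Of the 82, 15 had 2 spots, and the single spots of these, whose means chose the members, gave a Top3b26 2 minus Top3b26 3 of between 3.15 and 6.19.

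**Figure D3:**
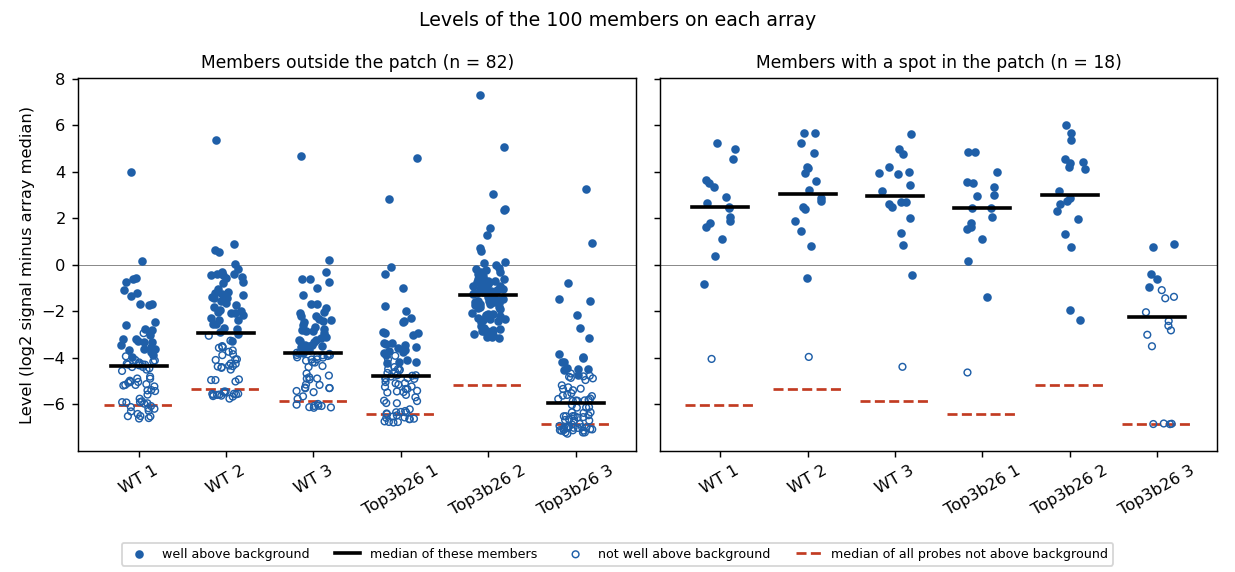
Level (log2 signal minus the array median) of each member on the 6 arrays, for the 82 members outside the area (left) and the 18 with a spot in it (right). Filled points are well above background and open points are not, black bars are medians over the members, and dashed red bars the median of all probes not well above background on that array. On the left the medians lie below 0 on all 6 arrays, with single members well above 0, and on the right the median lies below 0 on Top3b26 3 only.

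By their flags, the 82 members formed 3 groups. A first group of 24 was not well above background on any of the 4 unused arrays nor on Top3b26 3. Their medians of -5.83, -4.68 and -5.22 in WT, -5.85 on Top3b26 1 and -6.61 on Top3b26 3 lay within 0.66 of the median level of all probes not well above background on the same array. Their median on Top3b26 2, where the rule asks for the flag, was -1.98. A second group of 41 was well above background on 1 to 3 of the 4 unused arrays, with medians of -4.28, -2.37, -3.64 and -4.74 there. WT 2 was the array most often included, for 26 of these 41. The last 17 members were well above background on all 4, with medians of -2.78, -0.73, -2.18 and -2.93, and of 0.12 and -3.83 on Top3b26 2 and 3. Over all eligible probes, 86 (0.504%) were well above background on Top3b26 2 and on none of the 4 unused arrays, and 25 of those 86 were members.

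Single members show the range. The member ranked 5, the highest outside the area, had levels of -6.61, -5.02 and -6.07 in WT and of -6.78, -0.90 and -7.08 in Top3b26, so Top3b26 2 alone was above background. The member ranked 23 had levels of -6.59, -0.43 and -2.83 in WT and of -6.76, -2.11 and -7.21 in Top3b26. It was thus higher on WT 2 than on the array it was chosen for, and at the background on WT 1, Top3b26 1 and Top3b26 3. Another probe of its transcript did not share this pattern and was well above background on all 6 arrays. That probe had levels of 3.45, 3.70 and 3.64 in WT and of 3.29, 3.96 and 3.01 in Top3b26. The member ranked 78 was the brightest of the 82, with levels of 3.98, 5.35 and 4.66 in WT and of 4.62, 7.29 and 3.27 in Top3b26. On it Top3b26 2 was the highest array and Top3b26 3 the lowest, as for most members, but every preparation was far above background.

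Other probes of the same transcripts were compared with the members. Ranks 7 and 9 belong to 1 transcript. The first had levels of -6.19, -2.54 and -4.89 in WT and of -6.42, -1.19 and -7.00 in Top3b26, and the second had -5.23, -2.27 and -4.76 in WT and -6.35, -1.14 and -6.93 in Top3b26. The arrays thus stood in the same order for both. Another probe of this transcript, not a member, did not follow them. It had levels of -5.31, -5.30 and -5.10 in WT and of -6.27, -5.21 and -5.58 in Top3b26. It was well above background on no array, and its Top3b26 2 minus Top3b26 3 was 0.37. Including this one, 80 further probes, for 50 of the transcripts, were not members. Of these, 54 were well above background on Top3b26 2, like the eligible probes. Their Top3b26 2 minus Top3b26 3 ran from -1.88 to 3.31 with a median of 1.61, beside 1.28 over all eligible probes, and 37 of the 54 lay above that median. The other probes of rank 78 shared its order, with Top3b26 2 highest and Top3b26 3 lowest, and differed by between 2.32 and 3.03. A further probe for rank 43, not well above background on Top3b26 2, had a WT mean of 1.39 and levels of -6.02, -5.01 and -5.55 in Top3b26. Its Top3b26 1 minus the WT mean was -7.41, while the lowest among members was -6.12. Spots of members outside the area adjoined in 3 pairs. Ranks 22 and 25, of different transcripts, had nearly the same values, high on WT 1 (-0.60 and -1.20) and Top3b26 2 (-0.75 and -0.74) and between -5.85 and -4.37 on the other 4 arrays. Ranks 17 and 48 differed in height, but both were highest on Top3b26 2. Rank 17 had levels of -6.50, -5.67 and -6.06 in WT and of -6.75, -1.085 and -6.47 in Top3b26. Rank 48 had -4.39, -3.84 and -3.64 in WT and -4.65, -0.32 and -4.73 in Top3b26. In the last pair, rank 41 had -1.68, -2.15 and -2.04 in WT beside -5.03, -4.06 and -6.13 for rank 34. Both are means over 2 spots, of which only 1 each adjoined, and the adjoining spots alone were not compared. The part of the position in these values was not tested.

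The arrays were then ordered by the median of the 82 members, to see how the unused preparations lay between Top3b26 2 and 3. The order was Top3b26 2, WT 2, WT 3, WT 1, Top3b26 1 and Top3b26 3, from highest to lowest. The median level of all probes not well above background followed the same order, from -5.18 on Top3b26 2 through -5.34, -5.86, -6.04 and -6.40 to -6.86 on Top3b26 3. The eligible probes fell in the same order as well on the 4 unused arrays. WT 2 minus WT 1 had a median of 1.39 over the 82 members and of 0.80 over all 100, against 0.49 over the eligible probes, and WT 2 was above WT 1 for 84 of the 100 members and 88.8% of the eligible probes. WT 3 minus WT 1 had medians of 0.55 over the members and 0.36 over the eligible probes. WT 2 was the highest of the 4 unused arrays for 65 of the 100 members, and for 66.8% of the eligible probes. The share of members on which WT 2 led was thus near that of the eligible probes, while the size of their difference was larger in the median. The part of the background level of each array in this order was not tested.

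The label of the set refers to testis transcripts, and 142 probes named by AT clones, which come from an adult testis cDNA library, were set beside the members as the nearest measure the files allow. Their median level was -1.31 on WT 1, -2.96 on WT 2, -2.27 on WT 3, -1.01 on Top3b26 1, -4.46 on Top3b26 2 and 0.27 on Top3b26 3. This is the reverse of the order of the 82 members on all 6 arrays, where the places of Top3b26 2 and 3 were fixed for the members by the rule. Between 43.0% and 90.1% of the clone probes were well above background, least on Top3b26 2 and most on Top3b26 3. The members are described here by their rule, because neither group of probes could be tied to a tissue by marker genes. The male-expressed RNAs roX1 and roX2 (lncRNA:roX1 and lncRNA:roX2), which coat the male X chromosome, had Top3b26 2 minus Top3b26 3 of between 0.96 and 2.39 over 6 probes, 5 of them above the median of the eligible probes, and their part in the members' levels was not tested.

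**Figure D4:**
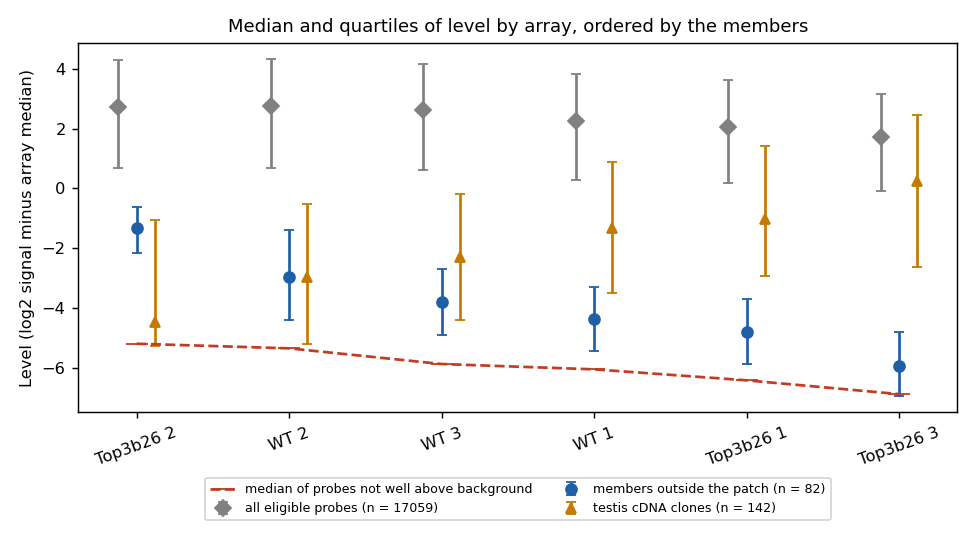
Median level (symbols) and quartiles (bars) on each array of all eligible probes (grey), of the 82 members outside the area (blue) and of 142 testis cDNA clone probes (orange), with arrays ordered from the highest to the lowest median of the members. The dashed red line is the median of all probes not well above background. The members fall from -1.31 to -5.94 from left to right, together with the red line, and the clone probes rise from -4.46 to 0.27.

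To ask whether the mutant preparation outside the rule differed from WT, Top3b26 1 was compared with the 3 WT arrays by limma across 25292 probes, which takes the spread of the single mutant array to be that of WT. Of the 50 members that could be tested, 2 passed an adjusted p of 0.05, 1 of them higher and 1 lower in Top3b26 1, where 0.526% of all probes tested passed, 0.13% higher and 0.395% lower. FBtr0110954 was higher in every mutant preparation than in any WT one, and FBtr0113407 was lost to the background on Top3b26 1 and 3 but lay near its WT level on Top3b26 2. The other 50 members were too dim for the test. Over all 100 members, Top3b26 1 minus the WT mean had a median of -0.70, beside -0.49 over the eligible probes, and it was above 0 for 10 members. Top3b26 1 lay below every WT array for 61 of the 100 members and above every WT array for 3. The shares over all probes tested were 57.5% and 18.1%, but 50 of the 100 members were too dim to be in that set. Within slide 1 alone, Top3b26 1 minus the mean of WT 1 and WT 2 had a median of -0.71 over the members and -0.45 over the eligible probes.

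FBtr0110954, ranked 71, had levels of -1.71, -2.06 and -1.28 in WT (mean -1.68 ± 0.39, SD, n = 3) and of 2.82, 5.06 and 0.96 in Top3b26 (mean 2.94 ± 2.05, SD, n = 3). Its processed signals on Top3b26 1 to 3 were 3892, 6686 and 2202, and it was well above background on all 6 arrays. The groups did not overlap. Top3b26 1 was higher than WT by 4.50 ± 0.47 (log2, SE; limma, adjusted p = 0.0303). With all 6 arrays the difference was 4.63 ± 0.96 (SE; limma, adjusted p = 0.153). That value uses the 2 arrays of the rule, which set much of the spread of the mutant group, and is given as a description. It passed with the replicate number as a block (limma, adjusted p = 0.0414), a pairing not adopted here. It also passed with normexp background (limma, adjusted p = 0.00971) and without Top3b26 2 (limma, adjusted p = 0.0280). It did not pass in the other settings, among them the 75th percentile (limma, adjusted p = 0.0668) and the slide as a block (limma, adjusted p = 0.413).

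FBtr0113407, ranked 8, had levels of -0.75, -0.19 and -0.61 in WT (mean -0.52 ± 0.29, SD, n = 3) and of -6.63, -1.04 and -6.84 in Top3b26. It was well above background on the WT arrays and Top3b26 2, with a processed signal of 97.9 on the latter, and was not on Top3b26 1 and 3, at 5.56 and 9.94. Against WT it was at least 15.9-fold lower on Top3b26 1, where the fold is taken to the lowest level that was well above background on that array (limma, adjusted p = 0.0126). With all 6 arrays the adjusted p was 0.474 (limma). Both calls were lost without WT 1, where each adjusted p was 0.0955 (limma) and 0 of all probes passed, and both were lost with the z-transformation, the 75th percentile, quantile normalization and normexp background. The differences themselves stayed between -6.23 and -5.67 for FBtr0113407 and between 4.49 and 4.93 for FBtr0110954 in these settings, except with normexp background, where they were -2.89 and 3.36.

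FBtr0080481, ranked 13, had a like profile, with levels of -3.20, -1.41 and -2.36 in WT and of -6.73, -1.70 and -7.20 in Top3b26. It was not well above background on Top3b26 1 and 3 and was at least 4.56-fold lower on Top3b26 1. It did not pass in the main setting, and whether it passed changed with the setting. The difference itself ran from -4.85 without WT 1 to -1.86 with normexp background. Another probe of the same transcript did not share this. It had levels of -2.50, -1.66 and -2.03 in WT and of -0.88, -0.03 and -1.71 in Top3b26, above background on all 6 arrays. FBtr0073606, ranked 89, had the next largest difference upward after FBtr0110954, with levels of -3.29, -5.54 and -2.76 in WT and of -2.41, -2.63 and -6.50 in Top3b26. Its Top3b26 1 minus WT of 1.45 ± 1.08 (SE; limma, adjusted p = 0.491) did not pass the test. WT 2 was at the background, and without it the difference was 0.61 (limma, adjusted p = 0.963).

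**Figure D5:**
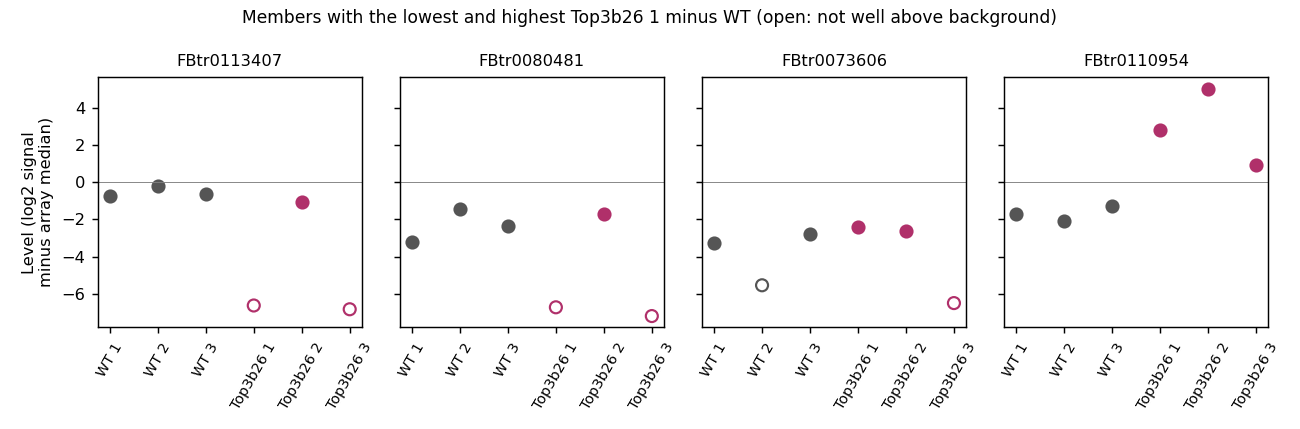
Level (log2 signal minus the array median) on each array of the 2 members with the lowest and the 2 with the highest Top3b26 1 minus the WT mean. Grey points are WT and magenta points Top3b26, and open points were not well above background. FBtr0110954 lies higher in all 3 mutant preparations, and FBtr0113407 and FBtr0080481 keep a WT-like level on Top3b26 2 only.

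Between all 3 Top3b26 arrays and WT, 0 of the 41 members tested passed limma's adjusted p of 0.05, where 0.543% of 23007 probes passed (0.0478% higher and 0.496% lower in Top3b26), and the plain 2-group test of the methods also called 0 of them. At an unadjusted p under 0.05 there were 2 of 41, beside 7.65% of all probes tested. This comparison holds the 2 arrays that chose the members. The median Top3b26 minus WT was -1.03 over the members tested and -0.38 over all probes tested. It was -1.73 over the 17 members tested that have a spot in the area on Top3b26 3 and -0.21 over the 24 that have none. The groups did not overlap for 5 of the 100 members, 1 higher and 4 lower in Top3b26. Of those lower, the members ranked 6, 27 and 50 have a spot in the area on Top3b26 3, and rank 27 has no other spot. All 5 were among the 41 members tested, and 14.6% of all probes tested did not overlap.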

How the data were processed

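The deposited intensity values are processed Cy3 signals of 45019 spots per array, which per the file headers Feature Extraction 11.5.1.1 had background-subtracted and corrected for spatial trends, with no scaling between arrays. The authors normalized by z-transformation and deposited the result as scores, which differed from z-scores recomputed from the same signals by at most 0.00502 and served as an alternative. Here outlier spots were left out, the log2 signals of a probe were averaged and the array median over non-control probes was subtracted. A probe was well above background where over 0.5 of its kept spots carried that flag, and 0 spots were saturated. Limma 3.58.1 (lmFit, eBayes) in R 4.3.3 tested probes for which all arrays of 1 or both groups were well above background, with Benjamini-Hochberg adjustment and a threshold of 0.05. A fold written as "at least" uses, for the dim side, the higher of the probe's level and the lowest level well above background on that array. In simulated data for Top3b26 1 against WT, 76.5% of probes changed by 4 (log2) and 0% of those changed by 1 or by 2 were called. The simulation used the 20240 probes well above background on all 6 arrays, with independent noise for each probe and spreads shuffled among them. Most members were not among such probes, so these shares do not describe them. Precision is limited by having only 3 arrays in a group, and p-values measure only the spread between these RNA samples. Members, lists and tests were chosen with earlier results of these data known. The members named are the 2 with the largest and the 2 with the smallest Top3b26 1 minus the WT mean, since at most 2 identifiers without gene names are printed each way, and others are given by rank. Marker genes other than roX1 and roX2, Top3beta and probe sequences were not analysed here. Normexp background used spot medians. A RefSeq gene table (Release 6) named 320 of 32162 probes.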

Additional observations from a re-analysis of the deposited data

How the results depend on the processing

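Of the 100 members, the z-transformation chose 98 again, quantile normalization 89 and the deposited scores 99, but normexp background chose 14, 10 of them with a spot in the area on Top3b26 3. That setting also differs in using spot medians, no spatial detrending and an offset of 50, and the cause was not tested. The members called for Top3b26 1 against WT were 2, but 0 with the z-transformation, the 75th percentile, quantile normalization and normexp background, 1 among the top 50 members, and 0 to 3 with 1 array left out. All probes called there were 133 (33 higher), but 5 (0 higher) with the z-transformation, 0 with the 75th percentile, 28 with quantile normalization, 50 with normexp background, 237 (128 higher) with the slide as a block and 0 to 537 with 1 array left out, 0 without WT 1, 537 without WT 2 and 249 without WT 3. For Top3b26 against WT, members called were 0, but 1 with normexp background, 1 with the replicate number as a block and 0 to 4 with 1 array left out, 4 without Top3b26 2, a setting that keeps Top3b26 3, where the rule chose the members to be low. All probes called there were 125 (11 higher), but 203 (39 higher) with the z-transformation, 366 (91 higher) with the 75th percentile, 189 (42 higher) with quantile normalization, 82 (19 higher) with normexp background, 73 with dim probes kept, 193 (23 higher) with the replicate block, 47 with the slide as a block, 1 with the methods' plain 2-group test and 17 to 602 with 1 array left out, which was 40, 17 and 32 without WT 1 to 3 and 34, 602 and 77 without Top3b26 1 to 3. The replicate numbers were not taken as pairs, since deviations of same-numbered arrays correlated at 0.41, 0.51 and -0.22 across 20240 probes. With normexp background the members' median WT 2 minus WT 1 was 2.01 while that of the eligible probes turned from 0.49 to -0.70, the median WT 3 minus WT 1 turned to -0.25, and FBtr0073606 turned to -0.37 on Top3b26 1. The members' median Top3b26 1 minus WT was -0.70 and ran from -0.99 with normexp background to -0.27 with the 75th percentile, and that of the eligible probes from -0.49 to -0.07. With the 75th percentile the median WT 2 minus WT 1 was 0.33 over the members and 0.02 over the eligible probes. Signals near the background limit the dim members, 25 of which were not well above background on any unused array. Leaving out the spots of the area, taking the members without it and listing the named members under each setting were chosen after the data had been examined.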

Other observations

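Probes without a FlyBase transcript identifier reached the value of the 100th member far more often than the eligible probes, whose share the rule fixed. Of 5115 such probes well above background on Top3b26 2, 368 (7.19%) had a Top3b26 2 minus Top3b26 3 at or past it, against 0.586% of the eligible probes, and 13 of the 368 had a spot in the area on Top3b26 3. They were also dimmer as a class: 64.3% had a mean level below 0 on the 4 unused arrays, against 21.0% of the eligible probes and 82 of the 100 members. Only 4 of the 368 carry a gene name, and these were looked at after their values were seen. CG10353 had levels of -0.02, 0.89 and 0.78 in WT and of -0.26, 0.98 and -6.84 in Top3b26, and its spot lies in the area. The long non-coding RNA lncRNA:yar had levels of -4.61, -5.50 and -6.18 in WT and of -5.35, -1.39 and -7.16 in Top3b26, so it was well above background on Top3b26 2 alone. asRNA:CR17025, an antisense RNA, was likewise well above background only there, at -2.77. lncRNA:CR43626 was well above background on WT 3 (-0.77) and Top3b26 2 (-0.59) and on no other array.

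A second area with lost signal was found on WT 1, in rows 1 to 20 and columns 12 to 33. It held all 74 spots of that array that were above the array median on the other 5 arrays and not well above background on WT 1. This area too was delimited after the spots had been examined, so that it holds them all follows from how it was drawn. No member had a spot there (0 of 100).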
